A study of Mus musculus with 9 samples.

Results

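Iron and haem handling was followed in mouse lung through 10 genes, which were the rows of the expression table whose symbol was Hmox1, Fth1, Ftl1, Slc40a1, Hamp, Tfrc, Trf, Slc11a2, Slc11a1 or Steap4, out of 18875 genes in the table. All 10 were found by symbol, and all 10 were among the 13991 genes tested, which reached 1 TPM (a length-corrected share of all transcripts) or more in 3 or more libraries. The libraries were made from poly(A) RNA of whole lung of wild-type (WT) BALB/c mice, 3 per group. The long-term PM2.5 group had 6 intranasal doses of fine particulate matter (10 mg/kg each), spaced 3 days apart, and the short-term PM2.5 group had 1 dose of the same size. Lungs of the PBS group came from animals labelled as having had PBS over the long-term schedule, so the short-term group has no control matched to its duration here. Age, sex and the interval between the last dose and collection are not given in the sources used here, and since nothing states that the samples of a group were separate mice, a p-value here covers the spread among these libraries, which may be technical.

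Cells take up iron bound to transferrin (Trf) through the transferrin receptor (Tfrc), reduce it with STEAP ferrireductases such as Steap4, and move it out of endosomes through DMT1 (Slc11a2) or, in phagocytes, NRAMP1 (Slc11a1). Iron that is not used is held in ferritin, a shell of heavy (Fth1) and light (Ftl1) chains, or leaves through ferroportin (Slc40a1), which the peptide hormone hepcidin (Hamp) binds and removes from the cell surface. Haem oxygenase 1 (Hmox1) opens the haem ring and releases its iron, and its gene is a classical target of the activator Nrf2 and the repressor Bach1. In the lung, macrophages take up red cells, haem and inhaled metal, and epithelial lining fluid holds transferrin, lactoferrin and other iron binders.

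Lung identity was clear in all libraries, where 9 lung markers such as Sftpc and Scgb1a1 made up 14.6 to 23.2% of all TPM. The short-term libraries stood apart from the other 6. They had 12560 to 13414 genes at 1 TPM or more, against 13534 to 13930 elsewhere, and their long transcripts were low. The median log2 difference from the PBS mean in the fifth of genes with the longest transcripts, minus that in the fifth with the shortest, was -1.34, -0.634 and -0.837 in short-term replicates 1, 2 and 3, against -0.179 to 0.0297 in the other groups. Each library was therefore also corrected for the length and GC content of its transcripts. Values are as deposited, and the corrected value stands beside those differences from the short-term group that it moved by over 1.5 times or whose call it changed. In bulk tissue, fewer cells of a type and less RNA per cell cannot be told apart.

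Haem oxygenase, ferritin, transferrin, Slc11a1 and Steap4 rose with the particles: Hmox1, Fth1, Ftl1, Trf, Slc11a1 and Steap4 were higher than with PBS after short-term and after long-term PM2.5. Hamp fell after long-term PM2.5 and did not pass the test after short-term PM2.5. Slc40a1, Tfrc and Slc11a2 passed in neither comparison with PBS. After long-term PM2.5, 6 genes were higher and 1 was lower at an adjusted p under 0.05 (limma on log2(TPM + 1), Benjamini-Hochberg over all genes tested), where 11.2% of all genes tested were called (9.51% higher and 1.72% lower). After short-term PM2.5, 6 were higher and 0 lower, where 51.9% of all genes were called, 11.7% higher and 40.3% lower. In the direct comparison of long-term with short-term PM2.5, Slc40a1, Trf and Slc11a2 were higher and Hmox1, Fth1 and Hamp lower, where 50.5% of all genes were called (43.4% higher and 7.08% lower). The median log2 change of the 10 genes was 0.58 after long-term and 0.61 after short-term PM2.5, where the median of all tested genes was 0.028 and -0.34. Both comparisons use the same 3 PBS libraries.

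**Figure D1:**
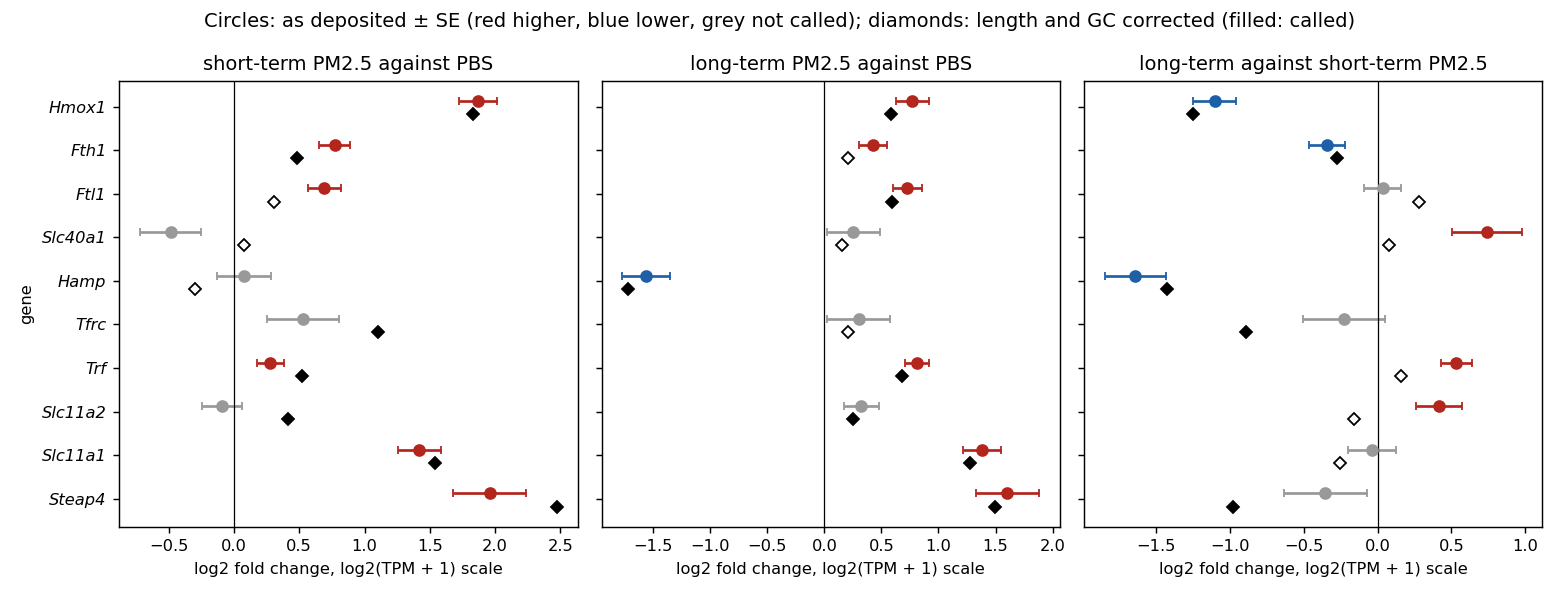
Log2 fold change on the log2(TPM + 1) scale of the 10 iron and haem genes (rows) in short-term PM2.5 against PBS, long-term PM2.5 against PBS and long-term against short-term PM2.5 (columns). Circles with bars are the values as deposited ± SE, coloured where called, and diamonds are the values after the length and GC correction, filled where called. Hmox1 and Hamp keep their call and direction on both versions wherever they have one, whereas Slc40a1, Trf and Slc11a2 lose theirs in the right-hand panel.

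The correction moved members with long and with short transcripts in opposite directions. In short-term PM2.5 against PBS, the 4 genes with the longest transcripts (3155 to 3720 bases, 40.8 to 51.3% GC) moved up: Slc40a1 from -0.48 to 0.07, Tfrc from 0.53 to 1.10, Slc11a2 from -0.09 to 0.41 and Steap4 from 1.96 to 2.47. The 3 with the shortest (410 to 929 bases, 50.5 to 58.1% GC) moved down: Hamp from 0.08 to -0.30, Ftl1 from 0.69 to 0.31 and Fth1 from 0.77 to 0.48. Length and GC content were corrected together, so their parts in these moves cannot be told apart. After it, 7 of the 10 were higher and 0 lower in short-term PM2.5 against PBS, with Tfrc and Slc11a2 added and Ftl1 lost. In long-term against short-term PM2.5, 0 were higher and 5 lower (Hmox1, Fth1, Tfrc, Hamp and Steap4). Against PBS, long-term PM2.5 kept 6 higher and 1 lower, with Slc11a2 called in place of Fth1. The correction covered 13770 tested genes, those of known length. Of these, 3371 were higher and 3648 lower after the short exposure than with PBS. Between the exposures, 2719 were higher and 3157 lower after the longer one. After the long exposure, 1804 were higher and 1769 lower than with PBS. The corrected counts of the other lists below stand against these numbers.

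**Figure D2:**
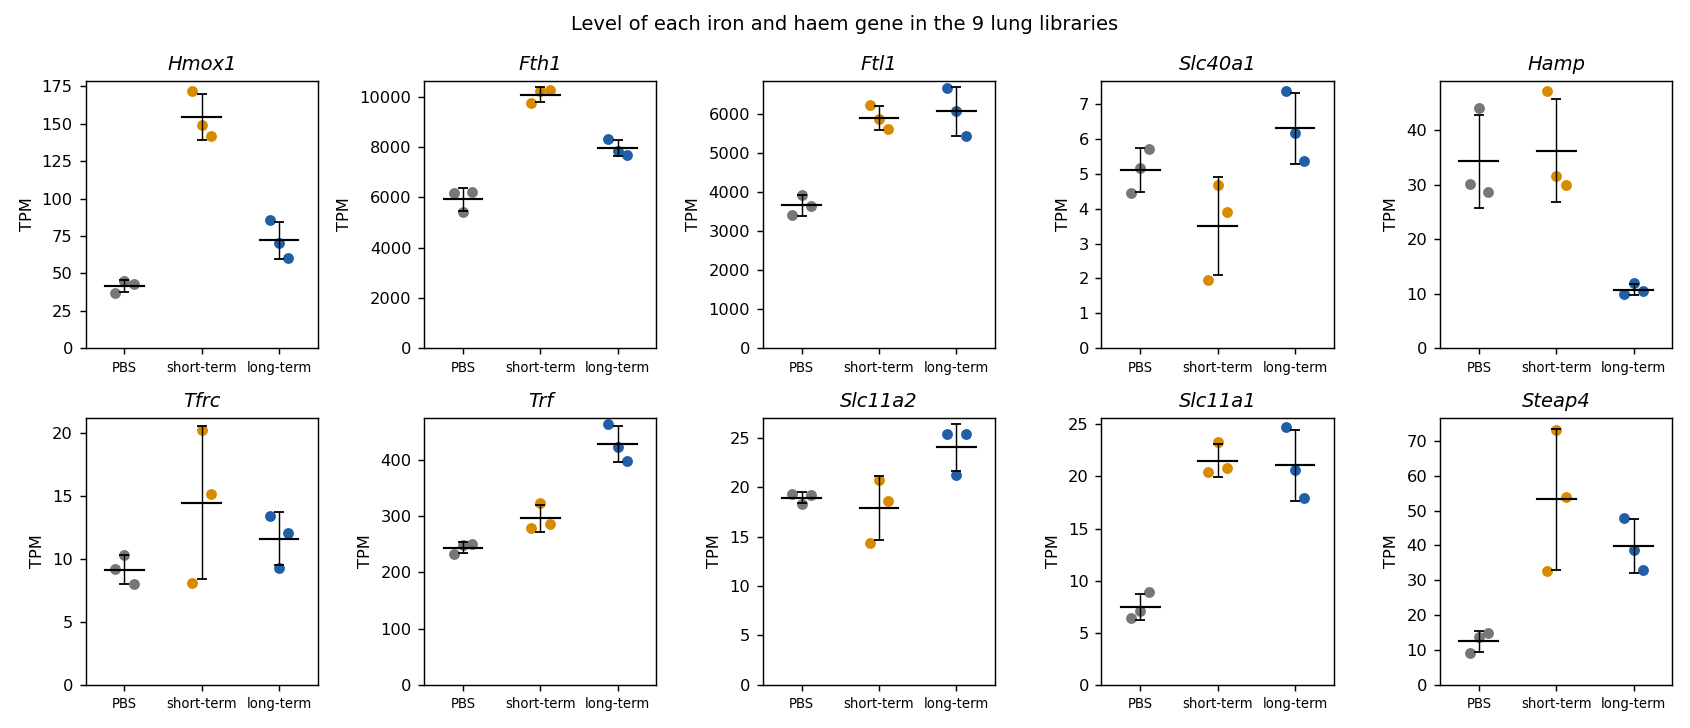
TPM of each of the 10 genes (panels) in the 9 libraries, with 1 point per library, a bar at the group mean and a whisker of 1 SD (n = 3 per group). Hmox1 forms 3 separate steps, from 36.97 to 44.76 with PBS through 60.39 to 85.54 long-term to 142.07 to 171.87 short-term, and Hamp is lowest in the long-term libraries, at 9.96 to 11.86.

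Hmox1, which encodes the inducible enzyme that breaks down haem (GRCm38.p6 chr8:75093618-75100593), stood at 36.97, 44.76 and 42.68 TPM in the PBS libraries. It stood at 171.87, 149.38 and 142.07 TPM after short-term and at 85.54, 69.99 and 60.39 TPM after long-term PM2.5. The 3 groups did not overlap, with the short-term libraries highest. For scale, the libraries of long-term PM2.5 and PBS did not overlap for 43.2% of all genes tested (25.9% higher and 17.4% lower). The same held for 60.3% in short-term PM2.5 against PBS (14.5% higher and 45.8% lower) and for 60.1% in long-term against short-term PM2.5 (50.2% higher and 9.94% lower). The log2 change against PBS was 1.87 ± 0.15 (SE) after short-term (adjusted p = 2.76e-05, limma) and 0.77 ± 0.15 after long-term PM2.5 (adjusted p = 0.00665). Between the exposures it was -1.10 ± 0.15 (adjusted p = 5e-04), and -1.25 after the correction. All 3 calls held under each of the 21 alternatives, with the short-term change between 1.79 and 2.22 and the long-term change between 0.58 and 0.89.

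Of the other enzymes of haem breakdown, 2 of 3 were higher after short-term and 0 of 3 after long-term PM2.5. For scale, 11.7% and 9.51% of all genes tested were higher. Blvrb, a biliverdin reductase, averaged 78.0 TPM with PBS and 122.9 TPM after short-term PM2.5 (log2 change 0.62, adjusted p = 0.0141, limma), or 0.28 after the correction. Hmox2, the constitutive haem oxygenase, averaged 79.7 and 102.3 TPM (0.35, adjusted p = 0.021). Blvra, the other biliverdin reductase, was not called in any comparison, with means of 17.36, 24.45 and 26.29 TPM in PBS, short-term and long-term lungs.

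The plasma proteins that capture free haemoglobin and haem were also higher, haptoglobin after both exposures and haemopexin after short-term PM2.5. Hp, haptoglobin, which binds haemoglobin, averaged 872 ± 33.9 TPM (SD, n = 3) with PBS, 2201 ± 223 after short-term and 1505 ± 37.5 after long-term PM2.5. Its log2 change was 1.33 (adjusted p = 3.15e-05, limma) and 0.79 (adjusted p = 0.00116). Hpx, haemopexin, which binds haem, stood at 1.16, 1.71 and 1.27 TPM with PBS and at 23.27, 29.58 and 26.10 TPM after short-term PM2.5. After long-term PM2.5 it stood at 1.83, 2.10 and 1.76 TPM, just above PBS. Its short-term change of 3.52 (adjusted p = 6.71e-07) was the largest among the scavenging and haem transport genes. The long-term libraries were lower than the short-term ones by 3.23 on the log2 scale (-3.23, adjusted p = 1.58e-06). Of all genes tested, 9.51% were higher and 1.72% lower after long-term, and 11.7% and 40.3% after short-term PM2.5. In this list of 9 genes, 2 were higher and 0 lower after long-term PM2.5, and 2 were higher and 3 lower after short-term PM2.5 (5 and 2 after the correction). Flvcr2, a membrane transporter linked to haem, was among the lower ones at 3.18 against 7.93 TPM (-1.15, adjusted p = 0.00528), and -0.68 after the correction. Slc46a1, a folate transporter that also carries haem, was the other gene to rise after long-term PM2.5 (5.29 to 8.16 TPM, log2 change 0.54, adjusted p = 0.0312).

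Haem synthesis had 0 of 15 genes higher and 1 lower after long-term PM2.5 (1 and 2 after the correction). Of all genes tested, 9.51% were higher and 1.72% lower there. As deposited, the lower gene was Alas2, the red cell form of the first enzyme of the pathway. It stood at 88.64, 135.85 and 89.37 TPM with PBS and 37.44, 51.21 and 54.00 TPM after long-term PM2.5 (-1.11, adjusted p = 0.0154, limma). Red cell markers moved the same way: 4 of 8 tested were lower and 0 higher, and their summed level was 1.79 to 3% of all TPM after long-term PM2.5, 5 to 7.55% with PBS and 3.51 to 6.73% after short-term PM2.5. Of these, Hbb-bt was at 0 in 7 of the 9 libraries. The part of red cells in the fall of Alas2, which is itself on that list, was not tested. After short-term PM2.5, 2 of the 15 were higher and 4 lower (3 and 4 after the correction). Of all genes tested, 11.7% were higher and 40.3% lower there. Alad, an early enzyme of the pathway, rose from 192.6 to 282.1 TPM (0.54, adjusted p = 0.00614), a change of 0.34 after the correction. Fech, which inserts the iron, fell from 40.98 to 20.54 TPM (-1.03, adjusted p = 0.00557), or -0.70 after the correction. Alas1, the form of the first enzyme found in most tissues, was higher in long-term than in short-term lungs at 237.4 against 127.2 TPM (0.92, adjusted p = 0.00225), by 0.49 after the correction.

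Ferritin was the most abundant part of the set, and both chains were higher after either exposure. Fth1, the heavy chain with ferroxidase activity (chr19:9980600-9985111), stood at 6160.5, 5394.5 and 6208.54 TPM with PBS. It reached 9752.55, 10224.04 and 10278.27 TPM after short-term and 8325.15, 7858.34 and 7692.84 TPM after long-term PM2.5. The groups of Fth1 did not overlap, and the short-term libraries were again highest. Ftl1, the light chain that aids mineral formation (chr7:45457944-45459886), stood at 3405.61, 3932.56 and 3655.2 TPM with PBS. It reached 6243.33, 5866.82 and 5630.93 TPM after short-term and 6677.6, 6089.55 and 5443.78 TPM after long-term PM2.5. For Ftl1 the exposed groups overlapped each other and lay above PBS.

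Fth1 changed by 0.77 ± 0.12 on the log2 scale after short-term PM2.5 (adjusted p = 0.000995, limma) and by 0.43 ± 0.12 after long-term PM2.5 (adjusted p = 0.0467). Its short-term call was held in 20 of 21 alternatives and lost with quantile normalization (0.324, adjusted p = 0.194). The long-term call of Fth1 was held in 8 of 21 alternatives: it was lost when any 1 library other than short-term replicate 1 or 2 was left out (adjusted p up to 0.197), and after the correction the change was 0.21 (adjusted p = 0.126). Ftl1 changed by 0.69 ± 0.13 after short-term (adjusted p = 0.00196) and by 0.73 ± 0.13 after long-term PM2.5 (adjusted p = 0.00412). The long-term call of Ftl1 was held in 20 of 21 alternatives and lost with median-ratio scaling (0.687, adjusted p = 0.0571). Its short-term call was lost after the correction (0.31, adjusted p = 0.0692) and with quantile normalization (0.332, adjusted p = 0.0767). Between the exposures, Fth1 was lower after long-term PM2.5 (-0.34 ± 0.12, adjusted p = 0.0378), a call lost when any 1 library other than PBS replicate 2 or short-term replicate 1 was left out (adjusted p up to 0.111), and with quantile normalization the difference turned to 0.067 (adjusted p = 0.8). Ftl1 was not called between the exposures (0.03 ± 0.13, adjusted p = 0.834). Both genes have near-identical processed copies in the mouse genome, so that reads could be split among copies. The libraries went through a nuclease step meant to lower abundant transcripts, whose part in the ferritin levels was not tested.

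Within a library, the ratio of Fth1 to Ftl1 TPM does not move when all values of that library are multiplied by 1 factor. It was 1.81, 1.37 and 1.70 with PBS, 1.56, 1.74 and 1.83 after short-term and 1.25, 1.29 and 1.41 after long-term PM2.5. The group means were 1.63 ± 0.23 (SD, n = 3), 1.71 ± 0.13 and 1.32 ± 0.086. The long-term range lay below the short-term range and overlapped that of PBS through PBS replicate 2. The correction is no such factor, nor is quantile normalization, and with the latter and the former the means were 1.77 and 1.63 with PBS, 1.74 and 1.82 after short-term and 1.48 and 1.24 after long-term PM2.5. As deposited, together the chains made up 0.959 ± 0.027% of all TPM with PBS, 1.6 ± 0.0091% after short-term and 1.4 ± 0.094% after long-term PM2.5.

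**Figure D3:**
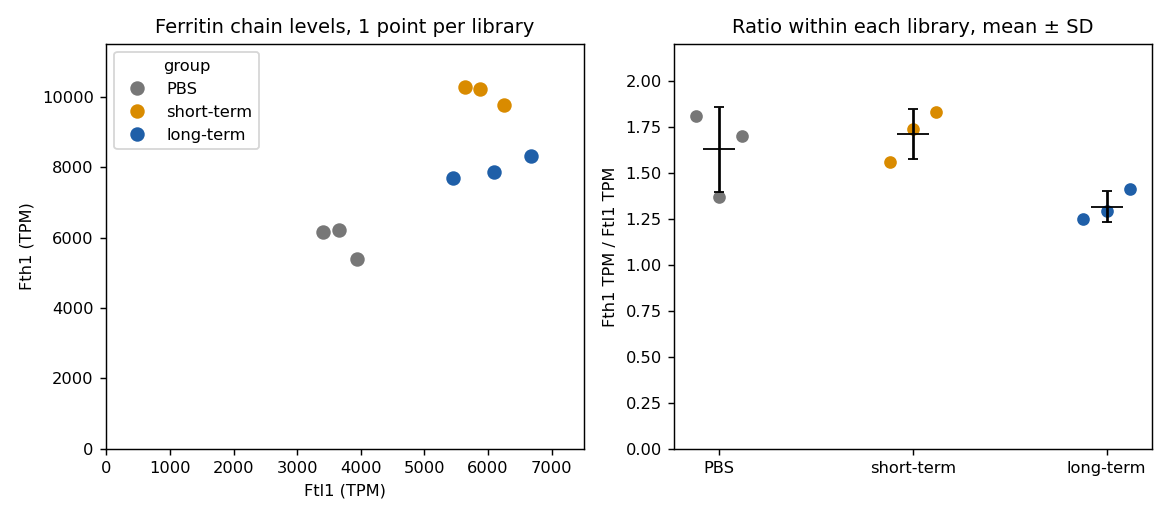
Left, TPM of the ferritin heavy chain (Fth1, vertical) against the light chain (Ftl1, horizontal), 1 point per library. Right, the ratio of Fth1 to Ftl1 TPM in each library with the group mean ± SD. The exposed groups share a range of Ftl1 but differ in Fth1, so the long-term ratio (1.25 to 1.41) lies below the short-term ratio (1.56 to 1.83).

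Ferritin, ferroportin and transferrin receptor are best known for control after transcription, through the iron-responsive element, a hairpin that iron regulatory proteins bind when iron is short. In a 5′ UTR it blocks translation, and in a 3′ UTR it protects the transcript from decay. The element was searched in reference transcripts as a C, 5 bases, CAGTGN and 5 bases, with the runs of 5 able to pair. It was found in 4 of the 10 members and in 1.44% of 17832 genes searched. Elements that depart from this strict pattern would be missed, so a gene without a match may still hold one. The sequences below (GRCm38, 5′ to 3′, loop in capitals) show how the same loop sits in the 5′ UTR of both ferritin chains and of ferroportin, and 4 times in the 3′ UTR of the receptor.
Fth1, 5′ UTR, chr19:9982733-9982759, + strand: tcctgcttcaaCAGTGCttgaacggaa
Ftl1, 5′ UTR, chr7:45459780-45459806, - strand: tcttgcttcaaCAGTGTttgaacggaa
Slc40a1, 5′ UTR, chr1:45925466-45925492, - strand: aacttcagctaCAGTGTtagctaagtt
Tfrc, 3′ UTR, chr16:32631220-32631246, + strand: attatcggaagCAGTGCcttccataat
Tfrc, 3′ UTR, chr16:32631599-32631625, + strand: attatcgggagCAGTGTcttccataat
Tfrc, 3′ UTR, chr16:32631664-32631690, + strand: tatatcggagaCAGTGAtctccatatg
Tfrc, 3′ UTR, chr16:32631711-32631737, + strand: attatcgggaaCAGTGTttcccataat
A match in a 5′ UTR was held by 0.146% of genes and one in a 3′ UTR by 0.656%. Transcript levels such as these do not measure translation, so the 5′ elements bear on protein levels that were not analysed here. Few of the regulators passed the test: of 5 genes for iron regulatory proteins and iron or oxygen sensing, 0 were called after long-term PM2.5 and 1 was lower after short-term PM2.5 (1 higher and 1 lower after the correction). For scale, 11.2% of all genes tested were called after long-term and 40.3% were lower after short-term PM2.5. Of the 5, the lower gene was Epas1, which encodes the oxygen-regulated factor HIF-2α. Epas1 averaged 972.4 TPM with PBS and 476.9 TPM after short-term PM2.5 (-1.06, adjusted p = 0.00126, limma), or -0.38 after the correction. After the correction Aco1 was higher by 0.37 in short-term lungs (adjusted p = 0.0105). Aco1 and Ireb2, the iron regulatory proteins, averaged 17.76 and 10.3 TPM with PBS, 16.51 and 6.31 TPM after short-term and 21.95 and 10.72 TPM after long-term PM2.5.

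No gene that loads or degrades ferritin was called higher against PBS. Of 3 tested, 0 were called after long-term PM2.5, where 11.2% of all genes were called. After short-term PM2.5, 2 were lower, where 40.3% of all genes were lower. Long-term libraries of Ncoa4 (47.61 to 65.36 TPM) and Pcbp2 (268.21 to 283.82 TPM) still lay above PBS (40.21 to 44.41 and 248.54 to 261.24 TPM). The same held for 25.9% of all genes, and Pcbp1 overlapped PBS. Pcbp1, a chaperone that delivers iron to ferritin, averaged 542.5 TPM with PBS and 375.9 TPM after short-term PM2.5 (-0.52, adjusted p = 0.00855, limma), and -0.49 after the correction. Ncoa4, the receptor that carries ferritin to the lysosome, averaged 42.2 and 23.19 TPM (-0.998, adjusted p = 0.0325), and its short-term libraries ranged from 9.98 to 35.17. After the correction the change of Ncoa4 was -0.38 (adjusted p = 0.0618). In long-term lungs Ncoa4 averaged 54.41 TPM, above short-term lungs by 1.34 (adjusted p = 0.0103), and by 0.64 after the correction.

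Hamp, the gene of hepcidin (chr7:30942368-30944029), was the only one of the 10 to fall against PBS. It stood at 30.09, 44.12 and 28.62 TPM with PBS and at 47.14, 31.61 and 29.97 TPM after short-term PM2.5. After long-term PM2.5 it stood at 9.96, 11.86 and 10.42 TPM. The long-term libraries lay below all 6 others, while the PBS and short-term ranges overlapped. The log2 change was -1.56 ± 0.21 against PBS (adjusted p = 0.000977, limma) and -1.64 ± 0.21 against short-term PM2.5 (adjusted p = 0.000397). Both calls held in all 21 alternatives, at -1.72 to -1.37 and -2.02 to -1.35. Short-term PM2.5 against PBS gave 0.08 ± 0.21 (adjusted p = 0.773) and was called in 0 of 21. The close copy Hamp2 stood at 0 to 0.62 TPM and was not tested, and reads could be split between the copies.

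Hepcidin transcription is driven by BMP signals through SMAD proteins and by interleukin 6 through STAT3. The 150 bases before the Hamp start site in the RefSeq promoter table (GRCm38.p6, chr7:30944030-30944179, - strand) are shown because they hold the letters of both kinds of site. In capitals are GGCGCC, searched as a BMP response element and found at -109 to -104 from the start, and TTCTTGGAA, which matches TTCNNNGAA, searched as a STAT site and found at -97 to -89.
Hamp: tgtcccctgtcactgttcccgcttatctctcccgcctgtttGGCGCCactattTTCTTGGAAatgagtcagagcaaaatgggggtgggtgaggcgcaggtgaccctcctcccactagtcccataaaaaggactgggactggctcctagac
Windows from the table, which also hold the first bases of the gene, were found for 6 of the 10 members, and both strands were searched. GGCGCC was in 11.9% and TTCNNNGAA in 8.3% of 32851 windows, and the matches did not overlap each other. Tfrc also held GGCGCC, and Steap4 also held a TTCNNNGAA match. The antioxidant response element TGACNNNGC, in 12.4% of windows, was in 0 of the 6. Hmox1, Slc40a1, Trf and Slc11a2 had no window and were not searched, nor were sites outside the windows.

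Of 17 tested genes of hepcidin regulation, 3 were lower and 0 higher after long-term PM2.5, where 1.72% of all genes tested were lower (5 and 0 after the correction). The 3 were Id1, Atoh8 and Smad6, which are known targets of BMP signalling. Id1 averaged 312.9 TPM with PBS and 187.4 TPM (-0.74 ± 0.13, adjusted p = 0.00517, limma). Atoh8 averaged 44.01 and 27.59 TPM (-0.65, adjusted p = 0.0263), and Smad6 averaged 362.3 and 244.4 TPM (-0.57, adjusted p = 0.0282). Bmp6, the ligand that endothelial cells supply to hepatocytes in liver, stood at 141.25 to 175.52 TPM with PBS and 98.08 to 105.94 TPM after long-term PM2.5 without passing the test (-0.64, adjusted p = 0.0631). Pecam1, an endothelial marker, fell alongside from 431.1 to 303.9 TPM (-0.50, adjusted p = 0.0267), and the part of endothelial cells in these levels was not tested. Pecam1 was also lower after short-term PM2.5, at 299.2 TPM (-0.54, adjusted p = 0.00611), but not after the correction (-0.08).

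Short-term PM2.5 gave another picture, with 14 of the 17 lower and 1 higher, where 40.3% of all genes were lower. Bmp6 fell to 65.13 TPM (-1.34, adjusted p = 0.000718, limma), or -0.93 after the correction. Smad6 fell to 176.4 TPM (-1.05, adjusted p = 0.000549) and Atoh8 to 20.36 TPM (-1.10, adjusted p = 0.000761). Both stood lower than after long-term PM2.5, although the range of Hamp here overlapped PBS. Long-term lungs were above short-term lungs by 0.48 for Smad6 (adjusted p = 0.0207) and by 0.44 for Atoh8 (adjusted p = 0.0422), the latter 0.26 and not called after the correction. After the correction, 12 of the 17 were lower and 2 higher than with PBS. Id1 was not among those that fell, at 274.63, 319.92 and 318.86 TPM. The gene that rose was Il6, at 0, 0.07 and 0.14 TPM with PBS and 5.25, 10.37 and 7.76 TPM after short-term PM2.5 (2.998 ± 0.24, adjusted p = 3.08e-05). After long-term PM2.5 Il6 stood at 1.23, 0.64 and 0.28 TPM (adjusted p = 0.132 against PBS). Short-term lungs thus had high Il6, low Bmp6, Smad6 and Atoh8, and Hamp in a range that overlapped PBS. Long-term lungs had low Id1, Smad6, Atoh8 and Hamp, with Bmp6 below the PBS range but not called. The part of these genes in the level of Hamp was not tested.

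Liver and heart muscle are textbook sources of hepcidin, so their markers are given beside it. Of 8 tested hepatocyte markers, 3 were higher and 3 lower after long-term and 1 higher and 5 lower after short-term PM2.5. Of all genes tested, 9.51% were higher and 1.72% lower after long-term, and 11.7% and 40.3% after short-term PM2.5. The 16 listed markers summed to 56.43 to 75.42 TPM with PBS, 16.41 to 28.32 TPM after short-term and 32.83 to 36.1 TPM after long-term PM2.5. Without Pon1, the most abundant of them, the sum was 22.5 to 43.4, 8.26 to 13.66 and 20.73 to 25.16 TPM in that order. The long-term range then overlapped that of PBS. The defining markers were near 0: Alb stood at 0.06 to 0.63 TPM over the libraries and Fgb at 0 in all 9. Of 12 tested heart muscle markers, 5 were lower and 0 higher after long-term and 6 lower and 0 higher after short-term PM2.5. Their sum was 975 to 1431 TPM with PBS, 661.4 to 987.4 TPM after short-term and 616.1 to 836.8 TPM after long-term PM2.5. Both sums were below PBS or at its lower edge in the short-term libraries too, where the range of Hamp overlapped PBS, and their part in the level of Hamp was not tested.

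**Figure D4:**
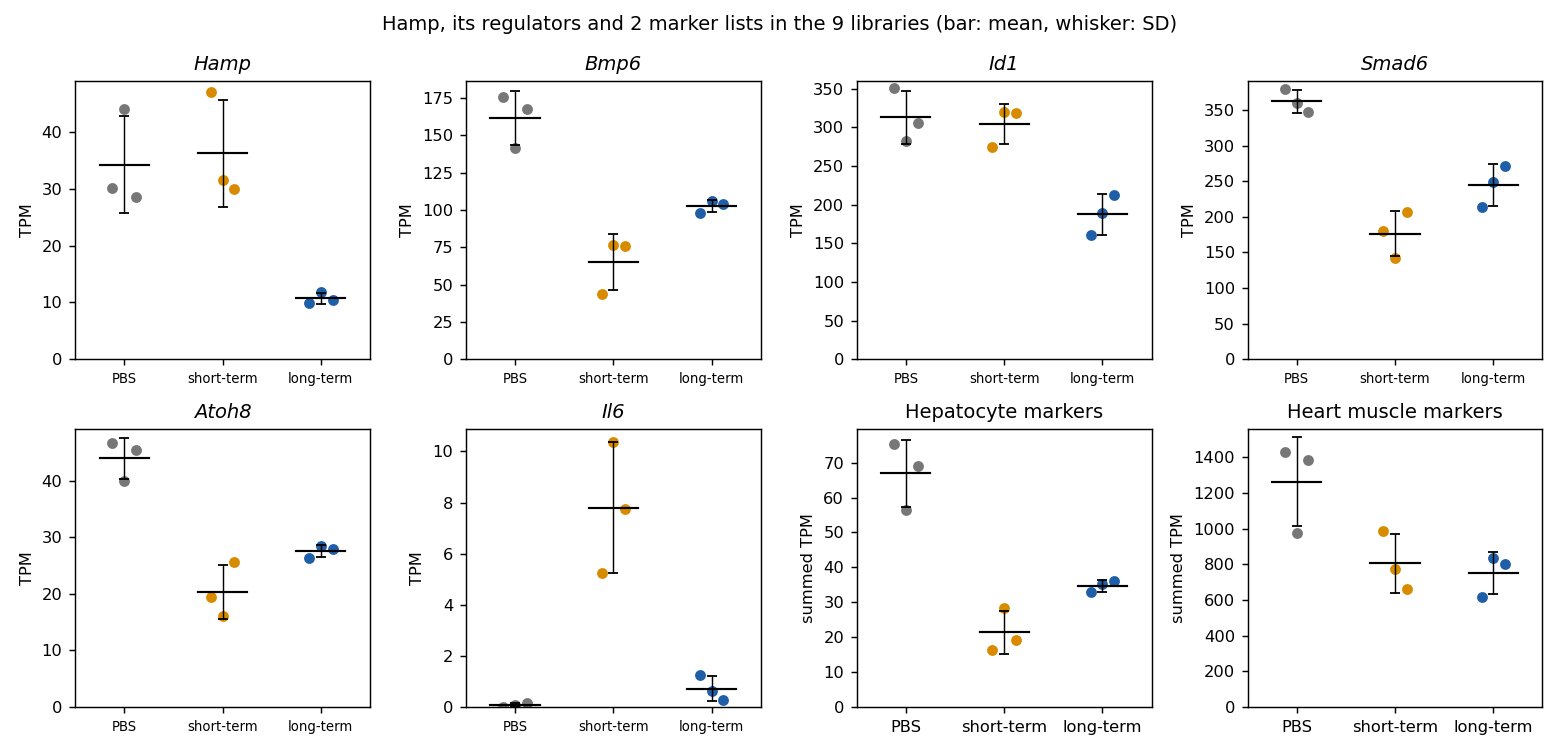
TPM of Hamp, of 5 genes of its regulation (Bmp6, Id1, Smad6, Atoh8 and Il6) and the summed TPM of the hepatocyte and heart muscle markers in the 9 libraries, with the group mean and a whisker of 1 SD (n = 3). Hamp and Id1 are low in the long-term libraries alone, Bmp6, Smad6, Atoh8 and both marker sums are low in both exposures, and Il6 is highest in the short-term libraries (5.25 to 10.37 TPM). Without Pon1, its most abundant marker, the hepatocyte sum of the long-term libraries overlaps that of PBS.

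Slc40a1, the gene of ferroportin, the iron exporter that hepcidin controls (chr1:45908070-45926532), had a low level in all groups. It stood at 4.47, 5.16 and 5.71 TPM with PBS, 1.96, 4.69 and 3.90 TPM after short-term and 7.40, 6.18 and 5.37 TPM after long-term PM2.5. The PBS range overlapped both exposures, and the long-term libraries lay above the short-term ones. Neither change against PBS passed (0.26 ± 0.24 and -0.48 ± 0.24). The difference between the exposures was 0.74 ± 0.24 (adjusted p = 0.025, limma), but 0.08 after the correction (adjusted p = 0.58). The call was also lost without long-term replicate 1 (0.635, adjusted p = 0.0917) or 2 (0.749, adjusted p = 0.0622), and a fall against PBS after short-term PM2.5 was called without short-term replicate 2 (-0.678, adjusted p = 0.0197). Cp, ceruloplasmin, the copper oxidase that loads exported iron onto transferrin, was higher after both exposures: 61.57 TPM with PBS, 167.6 TPM after short-term (1.40, adjusted p = 0.000681, or 2.08 after the correction) and 138.3 TPM after long-term PM2.5 (1.15, adjusted p = 0.00437). Heph, the membrane-bound oxidase, fell after short-term PM2.5 from 4.83 to 1.56 TPM (-1.26, adjusted p = 0.00231), or -0.52 after the correction, and was not called after long-term PM2.5 (3.95 TPM).

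Trf, which encodes the iron carrier transferrin (chr9:103208876-103230286), was higher after long-term PM2.5 than with PBS and, as deposited, than after short-term PM2.5. It stood at 232.36, 248.06 and 250.61 TPM with PBS, 278.95, 323.82 and 286.75 TPM after short-term and 463.88, 423.34 and 399.02 TPM after long-term PM2.5. No libraries of different groups overlapped. The long-term change of Trf was 0.81 ± 0.11 (adjusted p = 0.000868, limma) and held in all 21 alternatives at 0.68 to 0.86. The short-term change was 0.28 ± 0.11 (adjusted p = 0.0453), and 0.52 after the correction (adjusted p = 0.00104). As deposited, that call was lost when any 1 library other than short-term replicate 1 was left out (adjusted p up to 0.142). The long-term libraries were above the short-term ones by 0.53 ± 0.11 (adjusted p = 0.00353), and by 0.16 after the correction (adjusted p = 0.181). That call was held in 18 of 21 alternatives and was also lost with median-ratio scaling (0.142, adjusted p = 0.358).

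Tfrc, the receptor of iron-loaded transferrin (chr16:32608896-32632794), varied widely between replicates. It stood at 9.16, 10.31 and 7.97 TPM with PBS, 8.05, 20.19 and 15.14 TPM after short-term and 13.42, 9.28 and 12.04 TPM after long-term PM2.5. All 3 groups overlapped. The short-term change was 0.53 ± 0.28 (adjusted p = 0.129, limma), 1.10 after the correction (adjusted p = 4.35e-05) and 0.87 without short-term replicate 1 (adjusted p = 0.00202), the library with the strongest length trend. Without that library, the difference of -0.23 between the exposures became -0.57 and was called (adjusted p = 0.0205). The long-term change of Tfrc was 0.30 ± 0.28 (adjusted p = 0.653) and was called in 0 of 21 alternatives. Dividing cells, which use much transferrin receptor, had 11 of 11 tested markers higher after long-term PM2.5, where 9.51% of all genes were higher. After short-term PM2.5, 4 of the 11 were higher (8 after the correction), where 11.7% of all genes were higher. Their sum was 133.7 to 215 TPM after long-term PM2.5, 44.08 to 54.81 TPM with PBS and 67.29 to 78.35 TPM after short-term PM2.5. The part of dividing cells in the level of Tfrc was not tested.

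Slc11a2, the endosomal and apical iron importer DMT1 (chr15:100387898-100424209), had small differences. It stood at 19.34, 18.27 and 19.20 TPM with PBS, 14.36, 20.71 and 18.59 TPM after short-term and 25.40, 21.24 and 25.42 TPM after long-term PM2.5. The long-term libraries lay above all others, yet the change against PBS did not pass (0.32 ± 0.15, adjusted p = 0.255, limma). Against short-term PM2.5 the difference was 0.42 ± 0.15 (adjusted p = 0.0437) as deposited and -0.16 (adjusted p = 0.148) after the correction, so its direction depended on that step. The call between the exposures was lost when any 1 library other than short-term replicate 2 was left out (adjusted p up to 0.133), and the change against PBS was called without short-term replicate 1 (adjusted p = 0.0427).

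Slc11a1, the phagosomal metal transporter NRAMP1 (chr1:74375014-74386057), was higher after both exposures by nearly the same amount. BALB/c mice carry the susceptible, loss-of-function allele of this gene, so that the transcript level says nothing of transport here. It stood at 6.45, 7.07 and 8.87 TPM with PBS, 20.41, 23.31 and 20.78 TPM after short-term and 24.71, 20.61 and 17.90 TPM after long-term PM2.5. Both exposed groups lay above PBS and overlapped each other. The log2 change was 1.42 ± 0.16 after short-term (adjusted p = 0.000259, limma) and 1.38 ± 0.16 after long-term PM2.5 (adjusted p = 0.000512), and both calls held in all 21 alternatives. Between the exposures the difference was -0.04 ± 0.16 (adjusted p = 0.861).

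Slc11a1 and the ferritin chains are abundant in phagocytes, whose markers are given beside them. The 3 marker lists differed between the exposures. Of all genes tested, 9.51% were higher and 1.72% lower after long-term, and 11.7% and 40.3% after short-term PM2.5. Of 14 markers of monocytes and interstitial macrophages, 9 were higher and 0 lower after long-term and 9 higher and 1 lower after short-term PM2.5. Their sum was 1780 to 2269 TPM with PBS, 1558 to 2015 TPM after short-term and 2803 to 3411 TPM after long-term PM2.5, and Cd68, a lysosomal protein of macrophages, averaged 87.81, 199.4 and 339.8 TPM in that order. Apoe, the most abundant of the 14, made up much of these sums at means of 1570, 1019 and 1951 TPM. Without it the sum was 392.8 to 458.3 TPM with PBS, 773.3 to 816.4 TPM after short-term and 970.7 to 1438 TPM after long-term PM2.5. Of 13 alveolar macrophage markers, 7 were higher and 0 lower after long-term and 1 higher and 5 lower after short-term PM2.5, at sums of 798.6 to 1056, 485.5 to 690.9 and 1471 to 1834 TPM in the order PBS, short-term and long-term. Of 12 neutrophil markers, 10 were higher after short-term PM2.5, 0 were called after long-term PM2.5, and 8 were lower in long-term than in short-term lungs, at sums of 383.8 to 614.8, 1059 to 1571 and 362.2 to 633.4 TPM. No marker of these 3 lists was at 0 in any library. The part of these cells in the levels of Slc11a1, Hmox1 and ferritin was not tested.

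Steap4, a ferric and cupric reductase that inflammatory signals induce (chr5:7960472-7982213), had the largest increase of the 10 against PBS in both exposures as deposited. It stood at 9.07, 13.66 and 14.86 TPM with PBS, 32.68, 73.04 and 54.03 TPM after short-term and 47.98, 38.69 and 32.82 TPM after long-term PM2.5. The exposed groups overlapped each other and lay above PBS. The log2 change of Steap4 was 1.96 ± 0.28 after short-term (adjusted p = 0.000626, limma) and 1.60 ± 0.28 after long-term PM2.5 (adjusted p = 0.00414), held in all 21 alternatives. The difference between the exposures was -0.35 ± 0.28 (adjusted p = 0.3), -0.98 after the correction (adjusted p = 0.0011) and -0.661 without short-term replicate 1 (adjusted p = 0.0257). The 150 bases before its start (GRCm38.p6, chr5:7960322-7960471, + strand) are shown for the TTCNNNGAA match it shares with Hamp, in capitals at -116 to -108. Steap4 and Hamp did not move together in either exposure.
Steap4: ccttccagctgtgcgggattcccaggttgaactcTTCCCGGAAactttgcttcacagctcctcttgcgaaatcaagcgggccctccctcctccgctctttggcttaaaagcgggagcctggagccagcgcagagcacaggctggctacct

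Other genes of iron uptake were called in both directions after short-term PM2.5, as were genes at large. Of 7 tested, 1 was higher after long-term PM2.5, and 2 were higher and 3 lower after short-term PM2.5. Of all genes tested, 9.51% were higher after long-term, and 11.7% higher and 40.3% lower after short-term PM2.5. After the correction the counts for the 7 genes were 2 and 0, and 3 and 2. Steap1, a relative of Steap4, averaged 1.09 TPM with PBS and 4.59 TPM after long-term PM2.5 (1.40, adjusted p = 0.0016, limma). Slc39a14, the importer ZIP14 of non-transferrin iron, averaged 6.44 TPM with PBS, 18.78 TPM after short-term (1.37, adjusted p = 0.000936) and 8.20 TPM after long-term PM2.5. Steap3, the reductase of red cell precursors, fell after short-term PM2.5 from 33.92 to 18.07 TPM (-0.87, adjusted p = 0.00184), or -0.58 after the correction. Cybrd1, another ferric reductase, fell from 4.54 to 2.42 TPM (-0.71, adjusted p = 0.00662), but not after the correction (0.09).

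Secreted proteins that keep iron from microbes include lipocalin 2, which was higher after both exposures, and lactoferrin, which was higher after long-term PM2.5. Lcn2, lipocalin 2, which binds bacterial siderophores, stood at 183.6, 365.77 and 271.77 TPM with PBS. It stood at 8878.47, 7789.3 and 9001.28 TPM after short-term and 1909.18, 1452.79 and 1282.12 TPM after long-term PM2.5. The log2 change of Lcn2 was 5.01 ± 0.23 (adjusted p = 6.85e-07, limma) and 2.53 ± 0.23 (adjusted p = 0.000111). Ltf, lactoferrin, which binds iron directly, had the opposite order of exposures, at 10.7, 17.21 and 38.07 TPM with PBS, 38.58, 52.3 and 26.48 TPM after short-term and 212.58, 140.75 and 216.8 TPM after long-term PM2.5. Its long-term change was 3.21 ± 0.39 (adjusted p = 0.000577), and the short-term change did not pass (0.93, adjusted p = 0.0665) except after the correction (0.99, adjusted p = 0.0449). Long-term lungs were below short-term lungs for Lcn2 (-2.48, adjusted p = 0.000101) and above them for Ltf (2.28, adjusted p = 0.00181).

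As deposited, few mitochondrial iron and iron-sulphur cluster genes were called against PBS. After long-term PM2.5, 1 of 21 was higher and 0 lower (1 and 2 after the correction), where 9.51% of all genes were higher and 1.72% lower. After short-term PM2.5, 3 were higher and 0 lower, where 11.7% of all genes were higher and 40.3% lower. Cisd3, an iron-sulphur protein of mitochondria, was higher in both, at 23.83 TPM with PBS, 55.88 TPM after short-term (1.2, adjusted p = 0.000376, limma, or 0.76 after the correction) and 38.22 TPM after long-term PM2.5 (0.65, adjusted p = 0.0202). Fdxr, which reduces ferredoxin, rose after short-term PM2.5 from 10.16 to 16.67 TPM (0.66, adjusted p = 0.0105). After the correction 7 of the 21 were higher and 3 lower in short-term PM2.5 against PBS, where 3371 and 3648 of 13770 genes were. In long-term against short-term PM2.5, 0 were higher and 4 lower as deposited, where 43.4% and 7.08% of all genes were. After the correction these were 1 and 9, where 2719 and 3157 of 13770 genes were.

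Other genes of the Nrf2 pathway were called in both directions. Of 14 genes (Nrf2 itself, its regulator Keap1, Bach1, and 11 targets), 2 were higher and 1 lower after long-term PM2.5, where 9.51% of all genes tested were higher and 1.72% lower. After short-term PM2.5, 4 were higher and 4 lower, where 11.7% of all genes were higher and 40.3% lower. After the correction these counts were 4 and 2, and 5 and 3. Slc7a11, the cystine importer, rose by 1.07 after short-term (adjusted p = 0.00294, limma) and 1.06 after long-term PM2.5 (adjusted p = 0.00881), from 0.443 TPM to 2.09 and 2.07 TPM. After the correction its short-term change was 1.92. G6pdx, which supplies NADPH, rose after long-term PM2.5 from 41.47 to 56.32 TPM (0.43, adjusted p = 0.0255), but not after the correction (0.31, adjusted p = 0.101). Gclm, a subunit of the enzyme that starts glutathione synthesis, fell after short-term PM2.5 from 52.01 to 24.71 TPM (-1.08, adjusted p = 0.00108), or -0.56 after the correction. Gstm1, a glutathione transferase, fell from 930.7 to 451.9 TPM (-1.05, adjusted p = 0.000259). Gsta1 fell after long-term PM2.5, at 0.45 against 1.52 TPM (-0.80, adjusted p = 0.0285).

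**Figure D5:**
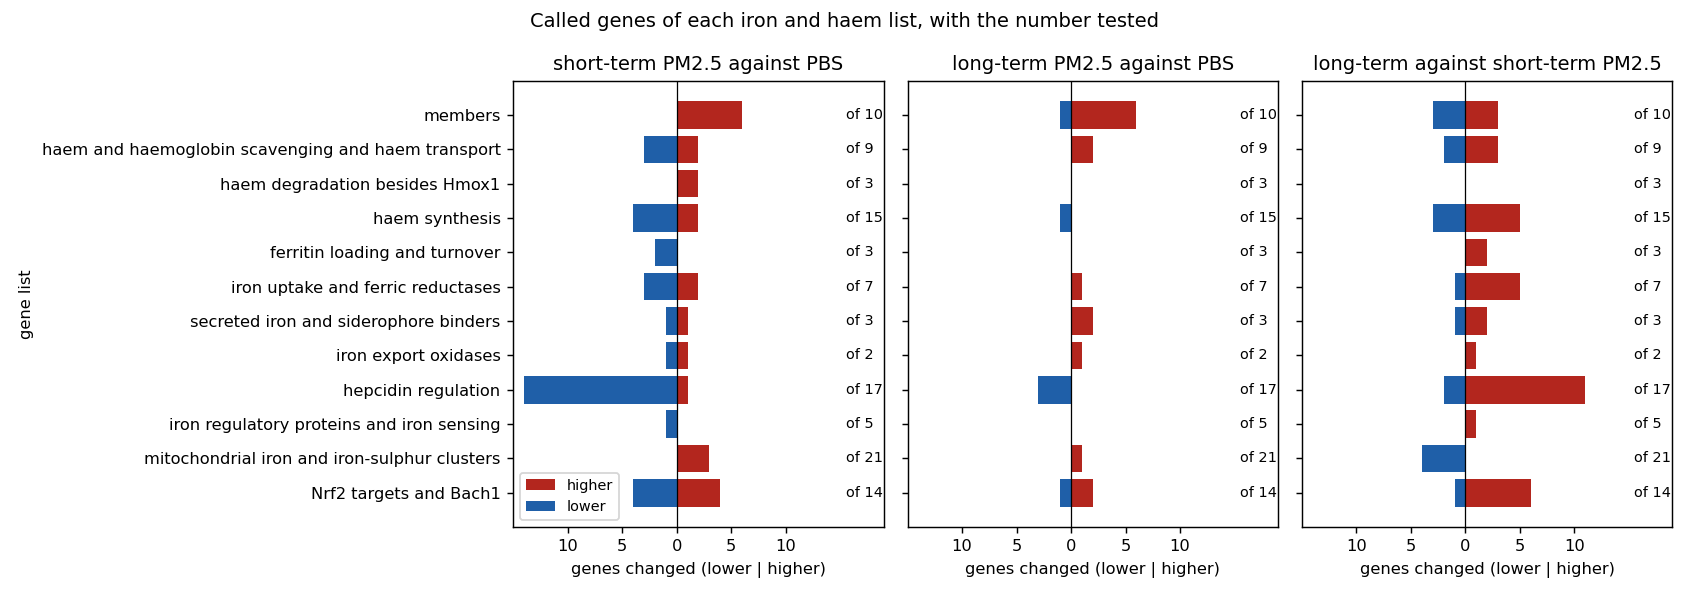
Number of genes called higher (red, right) and lower (blue, left) in the 10 iron and haem genes (labelled members) and in each list of related genes, for the 3 comparisons, with the number tested at the right edge. The bar of 14 lower genes of hepcidin regulation in the short-term panel stands against 40.3% of all tested genes called lower there, and the 10 members have 6 higher genes in each comparison with PBS.

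Patterns over the 9 libraries were compared as log2 levels. Those of Hmox1, Fth1, Ftl1, Slc11a1 and Steap4 correlated with each other at a Pearson r of 0.793 to 0.972, which describes 3 groups of 3 libraries, the short-term ones with the length trend. Hamp ran against Trf (-0.878) and Slc11a2 (-0.88). Among 13582 genes compared, those most like Hmox1 were Saa3 (0.997) and Emp3 (0.995), those most like Fth1 were Sdr39u1 (0.988) and Serpina3n (0.987), and those most like Ftl1 were Tyrobp and Ccl8 (both 0.987). Nearest to Trf were Pnpla7 and Rgs1 (both 0.992), to Slc11a1 Lilr4b (0.992) and Cib1 (0.991), and to Steap4 Aldh18a1 (0.989) and Cyp1b1 (0.988). Slc40a1 was nearest to Tmem175 (0.989) and Il18 (0.986), and Slc11a2 to Cep43 (0.98) and Taf9 (0.977). Hamp had the least close neighbours, Ddit3 (0.913) and Grap (0.908).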

How the data were processed

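Poly(A) RNA of whole lung was made into libraries that went through DSN processing (duplex-specific nuclease) and DNBSEQ sequencing, per the labels' protocols. The authors deposited 1 table of TPM values with 9 columns, 1 per library, which the columns' names match to samples. HISAT2, Bowtie2, RSEM and DESeq2 are named without role or version in the submitters' processing notes, which name GRCm38.p6 for 8 of 9 samples. TPM keeps no read number, so depth is unknown and no counting error is given.

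Values were taken as log2(TPM + 1). The 13991 genes that reached 1 TPM in 3 libraries were fitted in R 4.3.3 by limma 3.58.1, all 3 groups together (6 residual degrees of freedom, eBayes with intensity trend, two-sided, Benjamini-Hochberg over all tested genes, threshold 0.05). A fold change on this scale understates that of low genes. An exact test of 3 against 3 libraries could not go below p = 0.1. The length and GC correction subtracted natural splines (5 degrees of freedom each) from each library, leaving out 221 tested genes of unknown length. Python 3.11.15 read positions and transcripts from the GRCm38 annotation and promoters from the RefSeq table. The steps were tested on simulated data, and 21 alternatives were run, 9 of them leaving out 1 library.

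The members and lists were chosen with earlier results of these data known. All 10 members are named, with up to 3 called genes of smallest p per list and comparison and the 2 genes most correlated with each called member. Others (Blvra, Aco1, Ireb2, Bmp6 and Il6 after long-term PM2.5, Hamp2, Alb, Fgb and Hbb-bt, Atoh8 after short-term PM2.5 and Smad6 and Atoh8 between the exposures, Aco1 and Ltf after the correction, Apoe, and the values in a comparison where a gene was not called) are given as contrasts, chosen after their values were seen. The values of 1 gene that this rule selects are not reported here.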

Additional observations from a re-analysis of the deposited data

Results flagged for a closer look

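Levels differed between the exposures for 6 of the 10 genes, by the direct test of long-term against short-term PM2.5 (limma, adjusted p under 0.05). This is near the share of all genes tested, of which 50.5% were called in this comparison. The short-term group had no PBS control matched to its duration, and its libraries carried the length trend. The test thus compares levels of the 2 groups. Hmox1 (-1.10, adjusted p = 5e-04) and Hamp (-1.64, adjusted p = 0.000397) were lower after long-term PM2.5, as was Fth1 (-0.34, adjusted p = 0.0378). After the length and GC correction these were -1.25, -1.42 and -0.27, all called. Slc40a1 (0.74, adjusted p = 0.025), Trf (0.53, adjusted p = 0.00353) and Slc11a2 (0.42, adjusted p = 0.0437) were higher after long-term PM2.5 as deposited, and after the correction they were 0.08, 0.16 and -0.16, none called.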

How the results depend on the processing

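Of 627 values of the 10 genes under 21 alternatives, 532 kept their direction and side of the threshold, 64 lost a call, 25 gained one and 6 turned. In short-term PM2.5 against PBS, Slc11a2 was 0.286 after quantile normalization and 0.413 after the length and GC correction, with or without the replicate block, and Cybrd1 was 0.0906 after that correction. In long-term against short-term PM2.5, Fth1 was 0.067 after quantile normalization, Slc11a2 -0.159 and Epas1 -0.0083 after the length and GC correction, and Pcbp2 -0.0376 after median-ratio scaling. The cause was not tested. Of 1376 values of other listed genes, 1266 stayed, 105 lost a call and 5 turned.

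Genes called in long-term PM2.5 against PBS (1571) were 920 among genes of mean TPM 5 or more, 2583 with quantile normalization, 3573 with the length and GC correction, 3881 with only the compared groups, 3031 with the replicate block and that correction and 5273 with array weights, whose estimate did not fully converge. They were 779 to 3155 when 1 library was left out, with 779 without long-term replicate 1 and 3155 without short-term replicate 1. Array weights gave 11335 genes in short-term PM2.5 against PBS and 11345 between the exposures. Leaving out 1 library gave 5106 to 8907 and 4469 to 9149 genes there, and 6 to 8, 5 to 7 and 3 to 7 members in the 3 comparisons. Of the 6 members called between the exposures, 3 were called with only the compared groups, and 3 without long-term replicate 1 or without long-term replicate 2. The long-term ratio of Fth1 to Ftl1 was 1.48 after quantile normalization, against 1.32.

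Scaling shifted the split of calls. Higher and lower genes were 1467 and 512 (median-ratio), 1426 and 1157 (quantile) and 1804 and 1769 (length and GC) in long-term PM2.5 against PBS, against 1330 and 241. They were 3421 and 3885, 3477 and 3745, and 3371 and 3648 in short-term PM2.5 against PBS, and 3762 and 2756, 2977 and 2996, and 2719 and 3157 between the exposures. Hmox1 in all 3 comparisons, Hamp in both with a call, and Slc11a1, Steap4 and long-term Trf against PBS kept their calls under all 21.

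No pairing by replicate number was seen: residual correlations were -0.286 to 0.262 in 9 pairs of like number and -0.272 to 0.341 in 18 others. Residuals from means of 3 libraries constrain such correlations, so they cannot show that the samples were unpaired. A fit with the replicate number as a block called 1125, 6376 and 6111 genes and 6, 5 and 4 members. With TPM alone, depth could not be weighed.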
